A study of Rattus norvegicus with 42 samples.

Results

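The Myh1 and Myh4 windows are neighbouring stretches of rat chromosome 10 (genome build Rnor_6.0, plus strand) that hold the genes of the fast myosin heavy chains IIx and IIb. The Myh1 window runs from 53738501 to 53778240 and the Myh4 window from 53778241 to 53802000, and the genes were assigned to them by the conserved order Myh2, Myh1, Myh4 of this cluster. Of the 9971 peaks of the deposited table, 68 on the plus strand started in these windows, 33 in the Myh1 window and 35 in the Myh4 window. A further 12 peaks lay on the minus strand, 3 in the Myh1 window and 9 in the Myh4 window. Cap analysis of gene expression (CAGE), which sequences the capped 5′ ends of RNAs, had been applied to the slow m. soleus and the fast m. extensor digitorum longus (EDL) of 21 mature Wistar rats. The animals carried no transgene, and disuse was induced by hanging them by the tail so that the hindlimbs bore no weight. The 7 groups of 3 animals were an active control group, rats unloaded for 1, 3 or 7 days (D1, D3 and D7), and rats that were unloaded for 7 days and then allowed to move freely for 1, 3 or 7 days (R1, R3 and R7). Soleus and EDL were taken from every rat, which makes 42 libraries, and animals are named here by the numbers of the labels (U6, for example).

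Myosin heavy chain is the motor of the thick filament, and the isoform that a fibre makes sets its shortening speed. Myh4 encodes the fastest isoform of rat limb muscle (IIb), Myh1 the next (IIx) and Myh2 the oxidative fast isoform (IIa), whereas slow fibres use Myh7, which lies on another chromosome. The rat soleus is known as a muscle of mainly slow fibres and the EDL as one of mainly fast fibres, and disuse is known to move slow muscles towards fast isoforms. Antisense RNAs that start between the fast genes are also known from this cluster.

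The 250 bases before the annotated start of Myh1, Myh4 and their neighbour Myh2 are given to show how alike and how different the promoters of these neighbours are. They are RefSeq sequences of the build GRCr8 (Myh1 chr10:52384662-52384911, Myh4 chr10:52421898-52422147 and Myh2 chr10:52355489-52355738, all plus strand, written 5′ to 3′), which is not the build of the peaks, so no peak was placed on them. Capitals mark a run of 20 bases that all 3 promoters share and each TATAAA, read on either strand (TTTATA where it lies on the minus strand).
Myh1: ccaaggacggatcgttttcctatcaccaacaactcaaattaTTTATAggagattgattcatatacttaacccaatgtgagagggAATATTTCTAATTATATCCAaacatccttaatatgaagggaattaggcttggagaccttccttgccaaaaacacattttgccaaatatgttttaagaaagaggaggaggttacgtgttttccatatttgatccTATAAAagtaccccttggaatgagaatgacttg
Myh4: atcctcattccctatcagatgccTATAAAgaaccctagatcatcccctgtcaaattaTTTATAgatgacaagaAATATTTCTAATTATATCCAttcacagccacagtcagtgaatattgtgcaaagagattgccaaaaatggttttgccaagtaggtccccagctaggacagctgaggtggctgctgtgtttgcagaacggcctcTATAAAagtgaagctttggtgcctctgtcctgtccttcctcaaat
Myh2: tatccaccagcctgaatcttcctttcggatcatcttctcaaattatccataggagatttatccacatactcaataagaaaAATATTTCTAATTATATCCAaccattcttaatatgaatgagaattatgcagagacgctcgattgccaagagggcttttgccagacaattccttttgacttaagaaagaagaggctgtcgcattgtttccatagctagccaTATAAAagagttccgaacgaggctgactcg
The shared run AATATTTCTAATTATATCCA began 166 bases before the start of Myh1, 177 before that of Myh4 and 170 before that of Myh2. On both strands it occurred in 5 of 33469 promoter windows of the rat table (0.0149%). These were the windows of Myh1, Myh2 and Myh4 and 2 windows of the lncRNA LOC102555216, a gene of the minus strand whose promoter windows overlap that of Myh4. The TATAAA nearest to the start ended 28 bases before it in Myh1, 40 in Myh4 and 25 in Myh2, and 12.9% of all promoter windows held this motif on one strand or the other. The E-box letters CANNTG occurred at 2 places before Myh4 and nowhere in the 250 bases before Myh1, against 65.5% of all promoter windows. Aligned by distance from the start without gaps, the Myh1 and Myh4 promoters had the same base at 56 of 250 positions.

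The libraries held 4718621 to 22019390 tags in soleus (median 11577496) and 1778712 to 23103236 in EDL (median 6991564). Levels are given as TPM, the tags scaled to a total of 1000000 tags in every library. Library names place all 6 control libraries in sequencing lane 1 and all 6 R1 libraries in lane 4, so that lane and phase could be separated only through the groups that were split between lanes. The deposited tags are called rescued, a term for sharing out reads that match several loci, and the fast myosin genes are near-identical over long stretches, so the split of tags between the windows is uncertain to an unknown degree. The labelled muscles could not be checked against slow fibre markers, which were not placed on this build. No library went against its label in the fast myosin windows themselves, since every EDL library lay above every soleus library in both windows.

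In control rats both fast myosins were far higher in EDL than in soleus. The Myh1 window held 1302, 1481 and 1342 TPM in EDL (animals U6, U7 and U8; 1375 ± 93.7, SD, n = 3) and 63.1, 85.1 and 24.5 TPM in soleus of the same animals (57.5 ± 30.7). The Myh4 window held 2653, 1950 and 2022 TPM in EDL (2208 ± 387) and 20.6, 27.3 and 6.80 TPM in soleus (18.2 ± 10.5). The groups did not come near each other in either window, and within EDL the Myh4 window lay above the Myh1 window in each control animal, whereas in soleus it lay below it. The windows differ in length, so these are tags per window and not levels per length.

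In the fit of all 42 libraries, the soleus control level was lower than the EDL control level by 30.1-fold in the Myh1 window (log2 change −4.91 ± 1.01, SE, adjusted p = 0.00042) and by 147-fold in the Myh4 window (−7.20 ± 1.03). The window just upstream of Myh1, assigned to Myh2 by gene order, differed by −1.63 on the log2 scale in controls and did not pass the test (adjusted p = 0.230). Averaged over the 7 phases, the difference was −5.46 ± 0.39 in the Myh1 window (44.1-fold), −6.92 ± 0.39 in the Myh4 window (121-fold) and −3.17 in the upstream window. A peak was called where the edgeR quasi-likelihood test gave an adjusted p under 0.05 and the log2 change exceeded 1.25 in size. In controls 32 of 33 Myh1 peaks and 35 of 35 Myh4 peaks were called lower in soleus, against 6.11% of the 9947 peaks tested. Over the mean of the phases all 33 and all 35 were called lower, with the 3 and 9 minus-strand peaks, against 6.98% of the peaks tested. In soleus alone only 25 of the 33 and 14 of the 35 passed a filter on low counts, and none of the minus-strand peaks did. The others entered this fit through EDL, where they are high, so their call as lower in soleus was largely fixed in advance. Peaks of a window come from the same libraries and often from the same RNAs, so they are not independent. In bulk muscle, fewer fibres of a type and less RNA per fibre cannot be told apart.

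**Figure D1:**
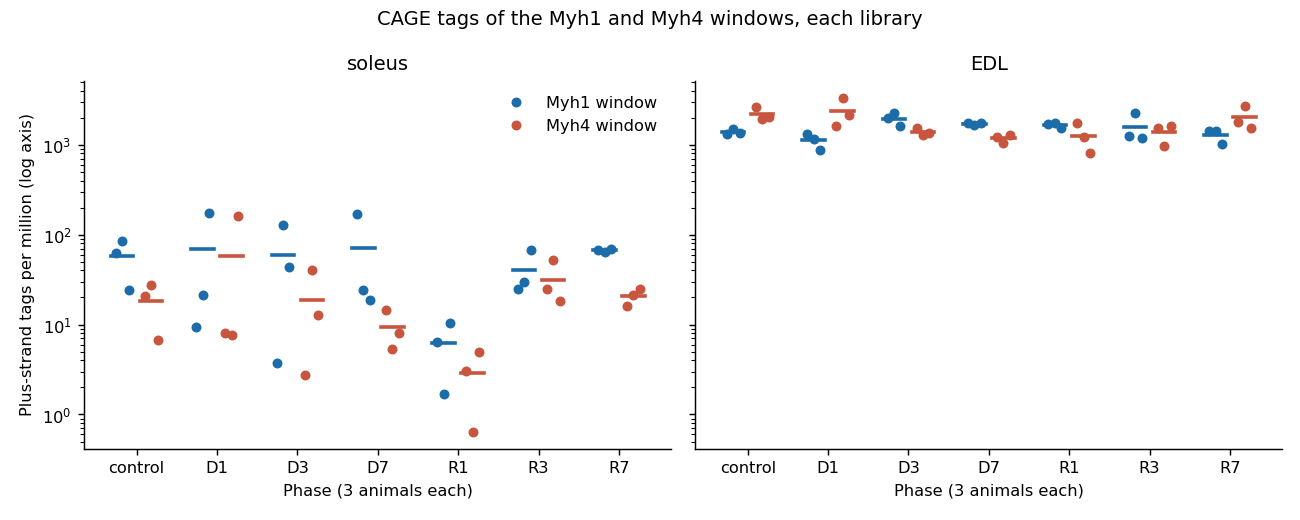
Plus-strand TPM (log axis) of the Myh1 window (blue) and the Myh4 window (red) in each library of soleus (left) and EDL (right), by phase; points are animals and bars are means of 3. EDL values stay between 800 and 3333 TPM in both windows, soleus values spread from 0.64 to 175 TPM, and the lowest soleus group is R1.

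Tags of neither window lay mostly at a single start. They were spread over 6025 plus-strand positions of the Myh1 window and 4896 of the Myh4 window, and the peaks were short (median width 151 and 119 nt) and scattered over 24.2 kb and 22.3 kb. The 12.2 kb from the last Myh1 peak to 1.5 kb before the first Myh4 peak held 0 to 11 plus-strand tags per library. In EDL the leading position of a library held a median of 2.78% of the Myh1 tags and 2.52% of the Myh4 tags.

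The muscles also differed in where the tags lay within a gene. In soleus the leading Myh1 position differed between phases. In every R1 library it lay inside the first peak of the window, on few tags. Position 53754390 led in 13 of 21 soleus libraries, among them every control, D3 and R3 library but no D7 or R1 library. It held 6.98% of the pooled soleus tags of the window and 1.38% of the EDL tags, and it also led in 2 EDL libraries. In EDL the leading Myh1 position was 53759697 in 7 libraries, 53752326 in 6 and 53740837, inside the first peak of the window, in 4. For Myh4 the leading position was 53797355 in 9 and 53793002 in 7 EDL libraries and 53794481 in 8 soleus libraries. The position 53794481 led in no D7 or R1 library of soleus. It held 4.05% of the pooled soleus tags and 0.853% of the EDL tags. Positions 53754390 and 53794481 were picked because they led in soleus, which favours a higher soleus share. The 101-nt region centred on the position with the highest mean level over all libraries held 1.85% of the Myh1 tags in soleus against 4.14% in EDL on average, and was lower in soleus in 19 of 21 animals. For Myh4 the region held 3.04% in soleus against 10.5% in EDL (lower in 21 of 21 animals). The centres of these regions were chosen on all 42 libraries, in which EDL supplies most tags, so a higher EDL share is built into the choice. The values are a description without a test.

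**Figure D2:**
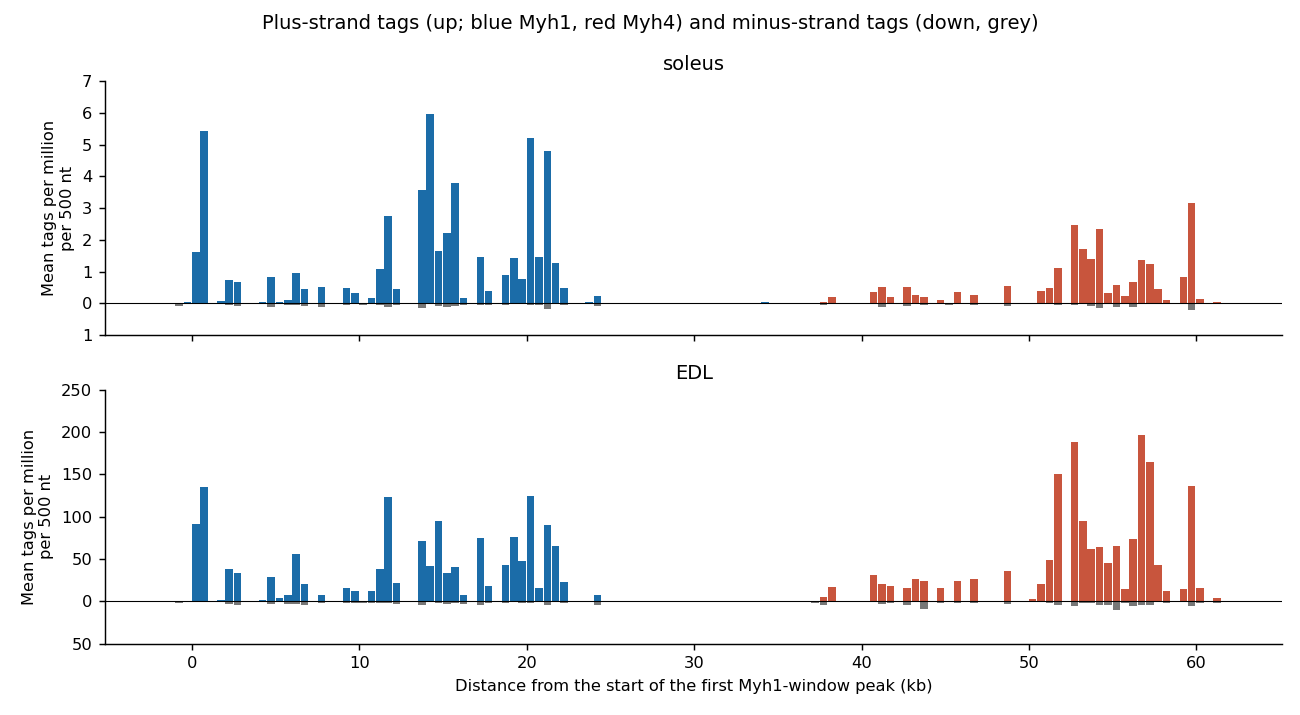
Mean TPM in bins of 500 nt along both windows, against the distance in kb from the first Myh1 peak, in soleus (top, n = 21 libraries) and EDL (bottom, n = 21); plus-strand tags point up (blue Myh1 window, red Myh4 window) and minus-strand tags down (grey). The axes of the muscles differ in scale, plus-strand tags are scattered over the peak span of each window in both, and minus-strand tags are a small share of either.

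The first peak of the Myh1 window (53740362 to 53741105, 744 nt) was also its highest by mean level, at 7.02 TPM in soleus and 226 TPM in EDL. It held 6.01 to 25.3% of the window's tags in EDL libraries. Myh4 had no counterpart of that weight: its 2 first peaks (which span 443 nt) held between 7.19 and 59.9 TPM in EDL, whereas its highest peak, starting at 53797328, averaged 256 TPM and lay toward the far end of the window. In control soleus the first Myh1 peak held 1.68, 0.60 and 2.18 TPM and in control EDL 230, 100 and 151 TPM (animals U6, U7 and U8). In the fit of all 42 libraries, which scales libraries by TMM factors, the difference was 141-fold, against 27.5-fold for the rest of the window. In soleus the first Myh4 peaks held 0, 0 and 1 tag in the control libraries.

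After 1 day of recovery both fast myosins had their lowest group mean in soleus, on both strands. The Myh1 window held 6.44, 1.67 and 10.4 TPM in R1 (animals U18, U20 and U21; 6.18 ± 4.39, n = 3), below each of the 3 control libraries, and the Myh4 window held 3.04, 0.64 and 4.89 TPM (2.86 ± 2.13). The groups did not overlap. These values rest on 91, 21 and 190 tags of the Myh1 window and 43, 8 and 89 tags of the Myh4 window, in libraries of 12558292 to 18200465 tags. Against control the fall was −3.69 ± 1.23 on the log2 scale for Myh1 (adjusted p = 0.0245) and −3.13 ± 1.12 for Myh4 (adjusted p = 0.0338). The upstream window fell as well, by −5.59 ± 1.26 (adjusted p = 0.0023). The window just downstream of Myh4 held 0.32 to 0.71 TPM in R1 against 5.39 to 14.2 TPM in control, given without a test. The Myh1 result lost its call without control U7 (−3.11, adjusted p = 0.0646), R1 U18 (−3.78, 0.0627) or R1 U20 (−3.27, 0.0849), and the Myh4 result without control U6 (−3.12, 0.0639), control U7 (−2.55, 0.0963), R1 U18 (−3.24, 0.0757) or R1 U20 (−2.70, 0.108). With lane as a block in the fit of 42 libraries the changes were −6.25 ± 2.40 (adjusted p = 0.427) and −5.03 ± 2.15 (adjusted p = 0.534).

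The minus strand fell with the plus strand. In R1 soleus the minus strand of the Myh1 window held 6, 1 and 3 tags and that of the Myh4 window 1, 0 and 3, against 46, 40 and 8 and 20, 24 and 10 tags in control. The fitted changes were −3.82 ± 1.23 (adjusted p = 0.0205) and −4.42 ± 1.25 (adjusted p = 0.0100), and at so few tags their size depends on the small count that the fit adds. The Myh1 minus-strand call was lost without control U7 (−3.31, adjusted p = 0.0552), R1 U20 (−3.49, 0.0717) or R1 U21 (−3.59, 0.0687). With lane as a block both calls were lost (−3.88, adjusted p = 0.803, and −3.77, 0.741). Against D7, where the minus strands held 51, 18 and 9 (Myh1) and 11, 6 and 8 tags (Myh4), the minus strand was called lower in both windows, at −4.31 ± 1.25 (adjusted p = 0.0119) for Myh1 and −4.06 ± 1.27 (adjusted p = 0.0180) for Myh4. The Myh1 call was lost without D7 U1 (−3.13, adjusted p = 0.0703), the Myh4 call without R1 U18 (−4.04, 0.0513) or R1 U20 (−3.65, 0.0599), and both with lane as a block (−1.67, 0.865, and −1.01, 0.916).

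The first Myh1 peak was not called in this comparison. It held 2.05, 0.88 and 2.91 TPM in R1 soleus, values that overlap with the control values of 1.68, 0.60 and 2.18 TPM. Its log2 change was 0.09 ± 1.17 (adjusted p = 0.961), whereas the rest of the window fell by −4.19 ± 1.32 (adjusted p = 0.0181). Its share of the window's tags was 31.9, 52.4 and 27.9% in R1 against 2.67, 0.71 and 8.90% in control. These shares do not overlap, and the exact two-sided permutation test gave p = 0.10, the smallest that 3 against 3 animals allow (adjusted p = 0.488 over 39 comparisons). The peak held 11 to 53 tags in the R1 libraries. The first Myh4 peaks held 2 of 43, 1 of 8 and 5 of 89 window tags in R1 soleus, against 0 of 343, 0 of 316 and 1 of 53 in control. Their share was thus higher in each R1 library than in each control library, on very few tags and without a test. Against D7, the time point from which recovery started, the Myh1 window fell by −3.78 (adjusted p = 0.0223) and the first peak changed by −2.66 (adjusted p = 0.0691). The Myh4 window changed by −1.95 against D7 on the plus strand and was not called (adjusted p = 0.164). The D7 animal U1, at 171 TPM, stood far above the 24.3 and 18.9 TPM of the other D7 animals, and without it the change of Myh1 was −1.996 (adjusted p = 0.189). The call was also lost without R1 U18 (−3.89, adjusted p = 0.0605) or R1 U20 (−3.38, 0.077), and with lane as a block (−2.86, 0.633).

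Of the 33 Myh1 peaks 25 passed the filter on low counts in soleus, and of the 35 Myh4 peaks 14; none of the 12 minus-strand peaks passed. Against control 10 of those 25 and 5 of those 14 were called lower in R1, where 8.59% of all 9842 peaks tested were called lower (1450 higher and 845 lower). With tag totals as library size the median of all peaks moved from 0.047 to 0.43 and the split of all calls to 2092 higher and 374 lower. Against D7 it was 13 of 25 and 0 of 14, where 7.66% of all peaks were called lower; 3 of the Myh4 peaks had an unadjusted p under 0.05 there and DESeq2 called 2, beside 4879 and 2470 of all 9842 peaks. Without D7 animal U1 the 13 calls fell to 0, without R1 U20 to 1, without R1 U18 to 3, without R1 U21 to 5 and without control U6 or R7 U13 to 7. With lane as a block, 0 Myh1 and 0 Myh4 peaks were called in R1 against control and 0 Myh1 peaks against D7; the controls were in lane 1 and the R1 libraries in lane 4. Under that block the named peaks that had been called changed by −7.43 to −4.99 against control and by −4.09 to −1.31 against D7. With both muscles in 1 fit, 9 of 35 tested Myh4 peaks were called against control, and 25 of 33 Myh1 and 4 of 35 Myh4 peaks against D7. Peaks with few soleus tags pass the filter there through EDL, and the share of all peaks called in that fit is not given here. Filtering kept peaks that were high in at least some groups, so the counts of the soleus fit describe the peaks that passed and not all members.

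Among the called peaks, the one starting at 53755606 held 14.1, 18.1 and 3.72 TPM in control and 0.28, 0 and 1.15 TPM in R1 soleus (−5.01 ± 1.13, adjusted p = 0.00232). The peak starting at 53754263 carries the position 53754390, which led in every control library of soleus and in no R1 library. It held 13.9, 23.9 and 5.00 TPM in control and 0.28, 0 and 1.21 TPM in R1 (−5.22 ± 1.40, adjusted p = 0.00712). In the Myh4 window the peak starting at 53799803, near the end of the peak span, held 5.70, 5.79 and 1.28 TPM in control and 0.14, 0.08 and 0.27 TPM in R1 (−5.03 ± 1.23, adjusted p = 0.00387). In each of these peaks every R1 library lay below every control library. The other named peaks called lower started at 53751947, 53760412, 53760809 and 53761328 in the Myh1 window and at 53781169, 53794198 and 53799928 in the Myh4 window, with changes from −5.17 to −3.71. The highest Myh4 peak of EDL, starting at 53797328, held 5, 3 and 0 tags in control soleus and 4, 0 and 3 in R1, too few to compare.

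**Figure D3:**
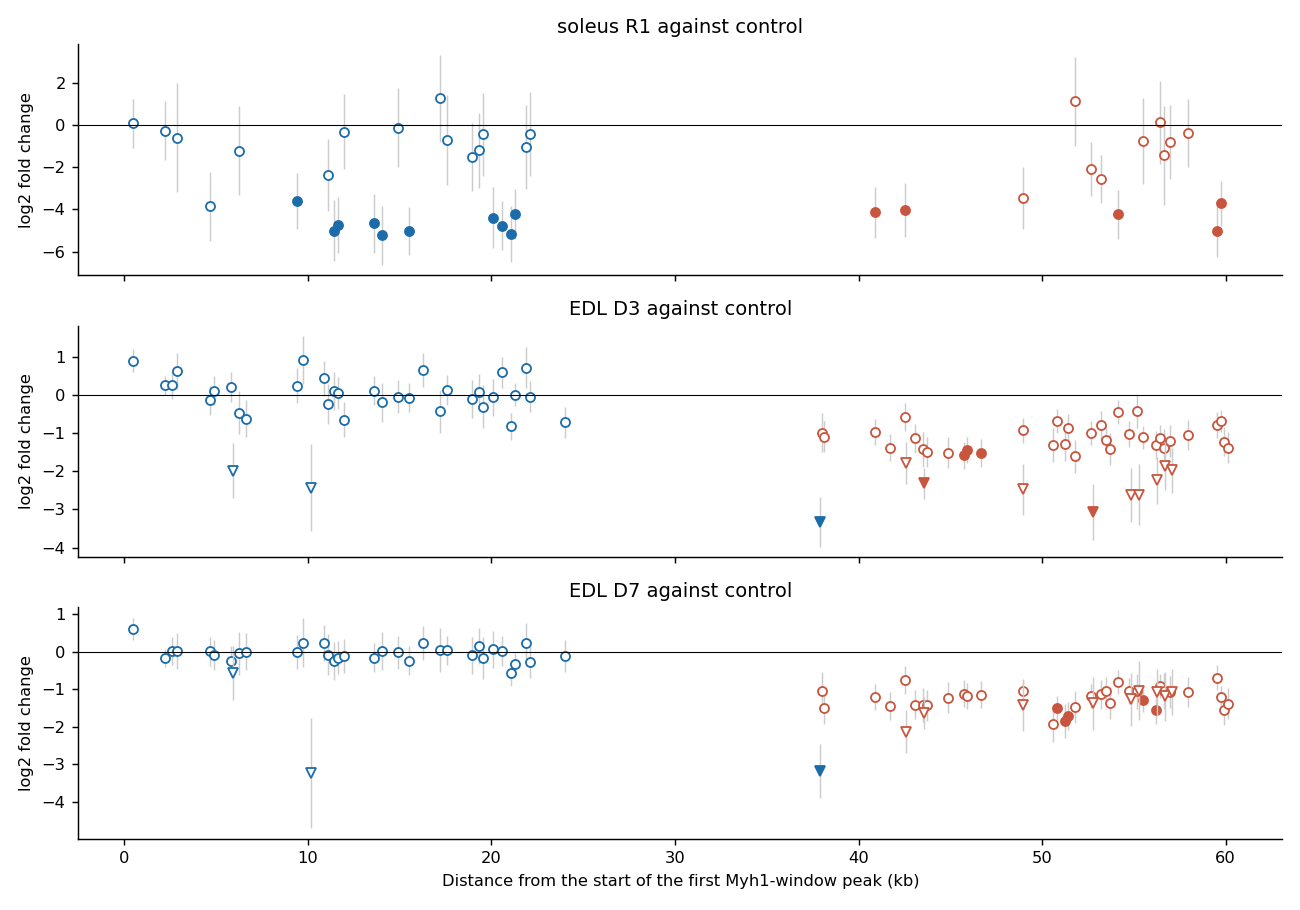
Log2 change of each tested peak, with bars of 1 SE, against the distance in kb from the first Myh1 peak, for soleus R1 (top), EDL D3 (middle) and EDL D7 (bottom), each against control; circles are plus-strand and triangles minus-strand peaks, blue in the Myh1 window and red in the Myh4 window, filled where called. In soleus R1 the called peaks lie within both genes while the first Myh1 peak sits at 0.09; in EDL D3 and D7 all Myh4 peaks sit below 0 and the Myh1 plus-strand peaks scatter around it.

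In the other soleus phases neither window total passed the test, and the unloaded animals of a group differed widely. In the Myh1 window the D1 animals U24, U25 and U26 held 9.34, 21.2 and 175 TPM. The D3 animals U9, U10 and U11 held 3.76, 129 and 43.9 TPM. The D7 animals U1, U2 and U3 held 171, 24.3 and 18.9 TPM, so that in each unloading group a single animal lay above the control range of 24.5 to 85.1 TPM and at least one lay below it. R3 animals held 25.04, 30.0 and 67.8 TPM and R7 animals 68.2, 63.8 and 69.3 TPM, all within the control range.

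In the unloaded groups the highest animal of the Myh4 window was the same as that of the Myh1 window. It held 8.13, 7.72 and 160 TPM in D1, 2.77, 40.7 and 12.7 TPM in D3, 14.7, 5.38 and 8.01 TPM in D7, 24.8, 51.9 and 18.2 TPM in R3, and 16.02, 21.6 and 24.6 TPM in R7. Animal U26 was the highest of all soleus libraries in both windows. Changes against control ran from −0.72 (R3) to 0.16 (D1) for Myh1 and from −1.18 (D7) to 1.57 (D1) for Myh4 (adjusted p = 0.763 in D7 and 0.496 in D1). The first Myh1 peak had positive but uncalled changes in each of these phases, from 1.80 in R3 (adjusted p = 0.373) to 3.07 in R7 (adjusted p = 0.115). It held 22.6, 5.96 and 3.08 TPM in D7, each above the 3 control values, and its share of the window's tags was 18.002% ± 5.84 in D7 against 4.09% ± 4.28 in control (no overlap, exact permutation p = 0.10, the smallest possible, adjusted p = 0.488).

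In the fit of the soleus libraries alone, no member peak was called by edgeR in D1, D3, D7, R3 or R7, where 1.97, 0.732, 0.122, 1.62 and 4.17% of all peaks tested were called in either direction. At an unadjusted p under 0.05 there were 8, 0, 8, 1 and 2 of 25 Myh1 peaks and 6, 0, 1, 1 and 1 of 14 Myh4 peaks in these phases, beside 1526, 1411, 1088, 2189 and 2454 of all 9842 peaks. DESeq2 called 1 Myh1 peak in D1, 2 in D7 and 1 in R7, and 2 Myh4 peaks in D1, where it called 319, 138 and 714 of all peaks in D1, D7 and R7. With both muscles in 1 fit edgeR called 9 of 35 tested Myh4 peaks in D1 and 1 of 33 Myh1 peaks in R7, and the share of all peaks in that fit is not given here. On leaving out single libraries, the D1 change of the Myh4 window ranged from −1.19 to 2.16 in the soleus fit.

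In EDL every library of D3, D7, R1 and R3 lay below the control libraries in the Myh4 window, but no window total on the plus strand was called. The Myh4 window held 1528, 1269 and 1335 TPM in D3 (animals U9, U10 and U11; 1377 ± 135), 1212, 1047 and 1289 TPM in D7 (1183 ± 123), and 1738, 1206 and 800 TPM in R1 (1248 ± 471). Each of these 9 values was below the lowest control value of 1950 TPM. R3 held 1542, 976 and 1636 TPM, also all below control, and R7 held 1792, 2715 and 1548 TPM, which overlaps with it. The log2 changes were −1.08 ± 0.35 in D3 (adjusted p = 0.124), −1.17 in D7 (0.121), −1.21 in R1 (0.266), −0.86 in R3 (0.285) and −0.45 in R7 (0.972). In D1 the 3 animals held 1620, 3333 and 2170 TPM, on both sides of control (0.22). The window just downstream of Myh4 showed the same pattern on the plus strand. It held 137 to 151 TPM in EDL control, 127 to 132 in D3, 102 to 118 in D7, 79.7 to 130 in R1 and 109 to 121 in R3. D1 (109 to 221 TPM) and R7 (105 to 199 TPM) overlapped with control. These values are given without a test, and the lower level was thus not particular to the Myh4 window.

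The Myh1 window total was not called in any EDL phase. It held 1982, 2255 and 1622 TPM in D3, 1750, 1657 and 1756 TPM in D7, and 1715, 1757 and 1534 TPM in R1, each above the highest control value of 1481 TPM. It held 1317, 1168 and 880 TPM in D1, 1256, 2236 and 1201 TPM in R3 and 1439, 1406 and 1023 TPM in R7, where most libraries lay within or below the control range. On the fitted scale, which adjusts for composition between libraries, its changes against control lay between −0.46 and 0.05 over the 6 phases, so whether it lay above control depends on the scale. Scaling by tag totals instead moved the median change of all peaks to 0.40 in D3, 0.37 in D7, 0.41 in R1, 0.13 in R3 and 0.29 in R7, with median changes of the Myh1 peaks of 0.48, 0.24, 0.29, 0.16 and −0.06. On that scale the median of the 35 Myh4 peaks was −0.78, −0.91, −0.84, −0.89 and −0.22. The first Myh1 peak held 430, 475 and 247 TPM in EDL D3 against 230, 100 and 151 TPM in control, a change of 0.89 that did not pass (adjusted p = 0.132). The share of window tags in this peak rose with library depth among the 21 EDL libraries (Spearman's rho 0.804 with the total tags, as a description over libraries of mixed phases), and the D3 libraries were the deepest of EDL at 17405735 to 23103236 tags; the part of depth in that value was not tested.

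The balance of the windows differed between the EDL groups. The Myh4 window took 67.1, 56.8 and 60.1% of the plus-strand tags of both windows in EDL control (61.3% ± 5.23, n = 3). It took 43.5, 36.0 and 45.1% in D3 (41.6% ± 4.88), 40.9, 38.7 and 42.3% in D7 (40.7% ± 1.82) and 50.3, 40.7 and 34.3% in R1 (41.8% ± 8.09). These 3 groups did not overlap with control, with differences of −19.8, −20.7 and −19.6 percentage points. Each gave the smallest exact permutation p that 3 against 3 animals allow (0.10, adjusted p = 0.244 over 39 comparisons), so the test could not reach 0.05. R3 animals took 55.1, 30.4 and 57.7%, and R7 animals 55.5, 65.9 and 60.2%, which overlaps with control.

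In soleus the share of Myh4 was lower than in EDL of the same animal in 20 of 21 animals, by 21.4 percentage points on average (sign-flip permutation test, adjusted p = 0.00195). Control soleus lay between 21.7 and 24.6% (23.5% ± 1.59). D1 lay between 26.7 and 47.7% and R1 between 27.6 and 32.1%, both without overlap with control (exact permutation p = 0.10 each, adjusted p = 0.244). D3 (29.6% ± 11.1), D7 (18.6% ± 10.9), R3 (44.7% ± 21.5) and R7 (23.5% ± 3.91) overlapped with control. The within-animal comparison joins muscles that shared an animal but not always a lane.

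**Figure D4:**
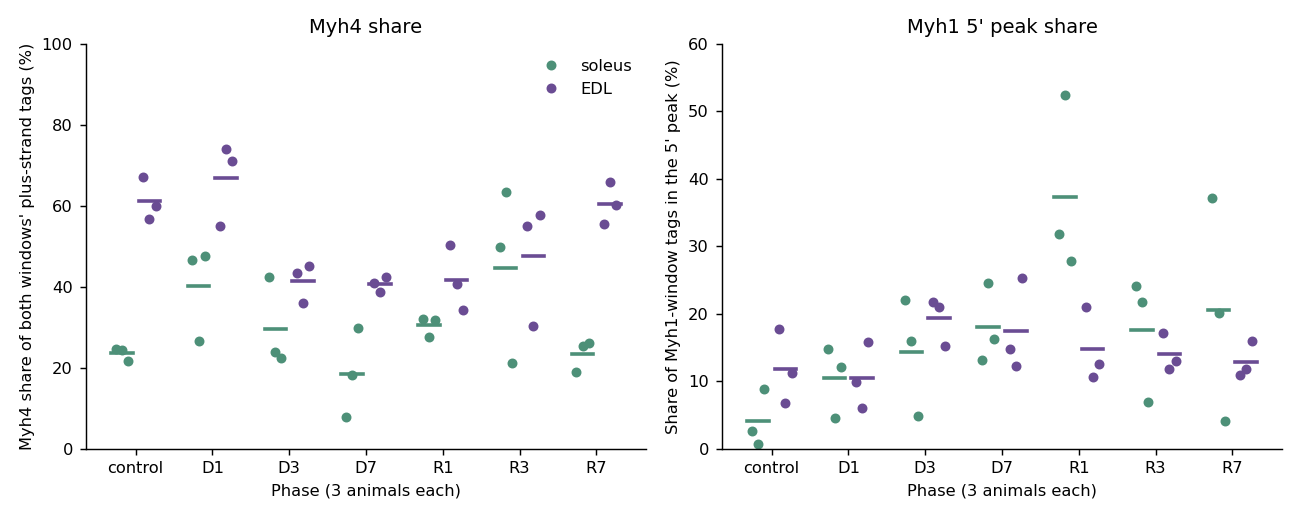
Left, share of the Myh4 window in the plus-strand tags of both windows (%), and right, share of the first (5′) Myh1 peak in the tags of its window (%), per library by phase in soleus (green) and EDL (purple); points are animals and bars are means of 3. The EDL share of Myh4 lies at 56.8 to 67.1% in control, at 34.3 to 50.3% in D3, D7 and R1, and at 55.5 to 65.9% in R7; the 5′ share of soleus is highest in R1, at 27.9 to 52.4%.

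From D3 on the single Myh4 peaks of EDL lay below control. In D1 24 of the 35 had a positive change, with a median of 0.16. All 35 had a negative change against control in D3, D7, R1, R3 and R7 (with tag totals 6 of the 35 turned positive in R7 and none in the other phases), with medians of −1.14, −1.20, −1.27, −1.07 and −0.54, where the median of all 9345 peaks lay at 0.036, 0.025, 0.011, −0.024 and −0.010. The 33 Myh1 peaks had medians of 0.04, −0.02, −0.10, −0.01 and −0.43. The 5 comparisons share their control libraries, and the peaks of a window share their libraries. Called lower were 3 of 35 Myh4 peaks in D3, against 0.31% of all peaks tested, and 5 of 35 in D7, against 0.492%. At an unadjusted p under 0.05 there were 31 and 32 of 35, beside 1678 and 1100 of all 9345 peaks, and DESeq2 called 11 and 13, beside 119 and 90 of all peaks called lower. By edgeR, 0 Myh4 peaks were called in either phase with tag totals as library size, with both muscles in 1 fit or with lane as a block. No plus-strand Myh1 peak was called in D3 or D7, with 2 and 0 of 33 at an unadjusted p under 0.05 and none by DESeq2. The 3 peaks called in D3 started at 53786018, 53786238 and 53786922, with changes of −1.59, −1.44 and −1.53. The 5 called in D7 started at 53791126, 53791552, 53791767, 53795772 and 53796424, with changes from −1.85 to −1.30. The D3 calls fell to 0 without any one of the controls, D3 U9 or D3 U10, to 1 without D7 U1 or R1 U20, and rose to 8 without D3 U11 and to 9 without D1 U25. The D7 calls fell to 0 without any one of the controls, D7 U1 or D7 U3, to 1 without D7 U2, to 2 without D1 U24, D3 U9, R7 U12 or R7 U19 and to 3 without D3 U10, R1 U20 or R3 U16, and rose to 8 without D1 U25 and to 9 without D1 U26 or R1 U21.

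In EDL D1, R1, R3 and R7 edgeR called no plus-strand member peak against control. In these phases 3.07, 0.0, 0.0 and 0.0% of all peaks tested were called in either direction. Of the 35 Myh4 peaks 0, 32, 25 and 3 had an unadjusted p under 0.05, and DESeq2 called 0, 8, 2 and 0. Of the 33 Myh1 peaks 0, 1, 0 and 0 had an unadjusted p under 0.05, and DESeq2 called 0 in each. Over all peaks the unadjusted counts were 1676, 899, 1294 and 408, and DESeq2 called 423, 29, 90 and 1, of which 139, 17, 9 and 1 were lower. Between R1 and D7 no plus-strand member was called by edgeR either, where 0.0214% of all peaks were called; 0 of the 68 plus-strand members had an unadjusted p under 0.05, and DESeq2 called 0, beside 576 and 45 of all peaks.

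The highest Myh4 peak, starting at 53797328, shows the size of these differences. It held 330, 302 and 280 TPM in EDL control, 203, 167 and 165 TPM in D3, 176, 180 and 158 TPM in D7 and 210, 198 and 112 TPM in R1. The 9 values of D3, D7 and R1 lay below the lowest control value. In D1 it held 302, 645 and 340 TPM, none below the lowest control value. In R7 it held 324, 428 and 206 TPM, on either side of the control range.

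Minus-strand tags made up a small part of both windows, and in EDL they were lowest in D3. In EDL control the minus strand of the Myh4 window held 160, 126 and 148 TPM (144 ± 17.4), and in D3 it held 25.9, 19.997 and 64.2 TPM (36.7 ± 24.0). The groups did not overlap, and the fitted change was −2.35 ± 0.50 (adjusted p = 0.0223). The call was lost without control U7 (−2.30, adjusted p = 0.0967), control U8 (−2.29, 0.0900), D3 U9 (−2.11, 0.118) or D3 U10 (−2.03, 0.133), with both muscles in 1 fit (−2.34, 0.0568) and with lane as a block (−4.03, 0.706). The minus strand of Myh1 held 83.1, 105 and 95.3 TPM in control and 32.5, 36.3 and 62.3 TPM in D3, which also do not overlap, with a change of −1.54 that was not called (adjusted p = 0.143). D7 (−1.29, adjusted p = 0.237) and R1 (−1.52, 0.311) were not called for Myh4.

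The ratio of minus- to plus-strand tags was also low in D3 in the neighbouring window. In the window upstream of Myh1, minus-strand tags amounted to 2.12 to 3.39% of the plus-strand tags in EDL D3 against 4.92 to 7.64% in control, and in the Myh1 window to 1.61 to 3.84% against 6.38 to 7.10%. Across the 21 EDL libraries, as a description over mixed phases, this ratio went with that of the upstream window (Spearman's rho 0.801 for Myh1 and 0.761 for Myh4) and against the total tags of the library (−0.796 and −0.606). The part of library depth in the D3 difference was not tested.

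Of the minus-strand peaks, 1 of 3 in the Myh1 window and 2 of 9 in the Myh4 window were called lower in EDL D3, against 0.31% of all peaks, and 1 of 3 and 0 of 9 in D7, against 0.492%. With lane as a block none of these was called, with changes of −2.94 ± 2.27 in D3 and −2.71 ± 2.42 in D7 for the Myh1-window peak and −6.60 ± 2.74 and −6.91 ± 3.29 for the Myh4-window peaks starting at 53783884 and 53793027, and with tag totals as library size the D7 call was lost. In D3 3 of the 3 Myh1 and 9 of the 9 Myh4 peaks had an unadjusted p under 0.05, beside 1678 of all 9345 peaks. DESeq2 called 7 of the 9 Myh4 peaks there, beside 291 of all peaks, 119 of them lower. In D7 3 of the 9 Myh4 peaks had an unadjusted p under 0.05, beside 1100 of all 9345 peaks. DESeq2 called 2 in D7, beside 221 of all peaks, 90 of them lower. The 2 Myh4 calls in D3 fell to 0 without control U7, D3 U9 or D3 U10 and to 1 without control U8, D1 U24, D7 U1, R1 U20, R1 U21 or R3 U16, and rose to 4 without D1 U25 and to 7 without D3 U11. The Myh1-window call was the same peak both times: it spans 53778144 to 53778270, so it lies across the window limit and faces away from the first Myh4 peak, which starts at 53778241. This is a minus-strand start back to back with Myh4. In EDL control it held 11.97, 4.01 and 8.20 TPM, in D3 1.29, 0.65 and 1.15 TPM and in D7 0.47, 2.42 and 0.76 TPM. All 6 values of D3 and D7 lay below the lowest control value, with changes of −3.32 ± 0.65 (adjusted p = 0.0143) and −3.18 ± 0.73 (adjusted p = 0.0374). It held 1.69, 1.51 and 5.91 TPM in D1, 7.69, 2.28 and 2.40 TPM in R1 and 8.16, 1.40 and 9.19 TPM in R3. In R7 it held 21.3, 22.3 and 8.34 TPM, and the change against control was 0.82 (adjusted p = 0.972). In soleus it held 0 to 5 tags per library. Both calls were lost without any one of the controls; the D3 call was also lost without D3 U9 or D3 U10, and the D7 call without D7 U1, D7 U3 or D3 U9.

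Minus-strand tags in EDL were also counted from 1.5 kb before to 50 nt after the start of the first Myh4 peak. They amounted to 18.5, 6.02 and 10.98 TPM in control, 0.91 to 2.01 TPM in D3, 0.71 to 3.14 TPM in D7 and 14.8 to 27.8 TPM in R7. The same stretch before the first Myh1 peak went the other way in D3, with 5.04, 5.15 and 2.07 TPM (animals U9, U10 and U11) against 0.41, 1.78 and 1.70 TPM in control. The 2 starts thus differed in opposite directions from control in D3, by values given without a test. The first Myh4 peaks on the plus strand held 59.9, 14.9 and 22.6 TPM in control and 22.2, 14.8 and 20.7 TPM in D3, which overlap (−1.04, adjusted p = 0.210). In the RefSeq table of GRCr8 the lncRNA LOC102555216 starts on the minus strand within the promoter window of Myh4, but the peak was not matched to it across builds.

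**Figure D5:**
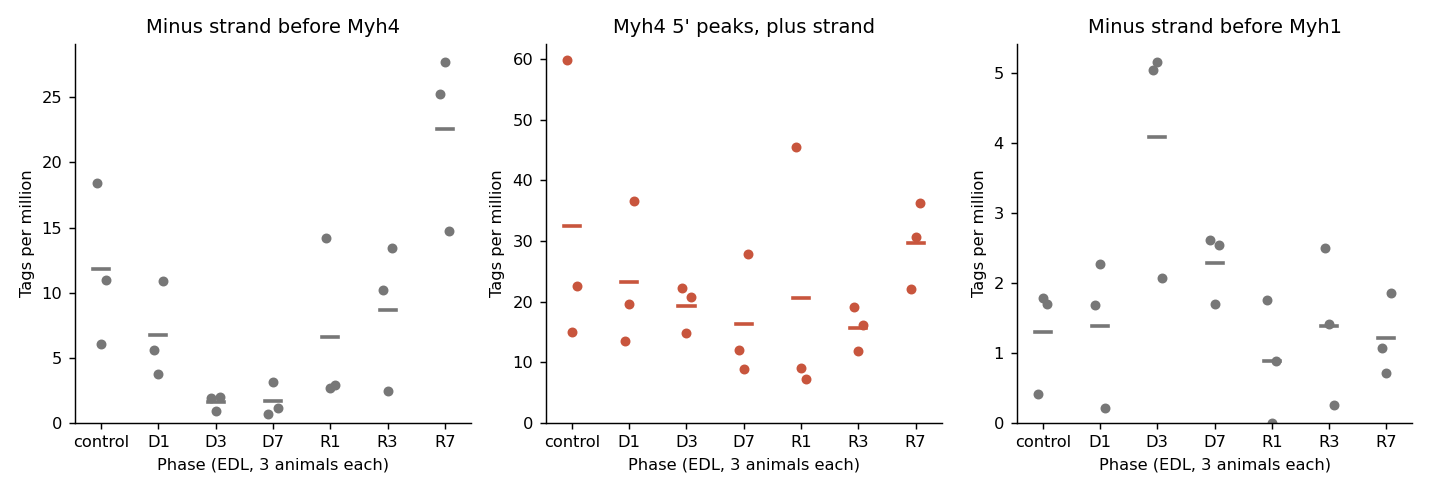
EDL TPM by phase for minus-strand tags before Myh4 (left), the first Myh4 peaks on the plus strand (middle) and minus-strand tags before Myh1 (right). The outer panels are counted from 1.5 kb before to 50 nt after the start of the first plus-strand peak. Points are animals and bars are means of 3. Before Myh4 the 6 libraries of D3 and D7 lie at 0.71 to 3.14 TPM, below the control range of 6.02 to 18.5 TPM, and R7 lies at 14.8 to 27.8 TPM, while before Myh1 the D3 libraries are the highest group.

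The difference between the muscles in their R1 change was tested directly. For the whole Myh1 window it was −3.70 ± 1.26 on the log2 scale (adjusted p = 0.0506) and for the whole Myh4 window −2.04 (adjusted p = 0.257), so neither passed. The Myh1 difference passed with DESeq2 (−3.63, adjusted p = 0.0201) and in edgeR when control U8, D1 U24, D1 U26, D3 U9, D3 U10, D7 U1, D7 U2, D7 U3 or R1 U21 of soleus was left out (adjusted p from 0.0270 to 0.0493). Outside its first peak the Myh1 window passed, at −4.15 ± 1.34 (adjusted p = 0.0388), and the upstream window passed at −5.34 (adjusted p = 0.0056). The first peak was set apart after its values were seen, which favours a pass of the rest. Of the single peaks, 9 of 33 in the Myh1 window and 3 of 35 in the Myh4 window were called, each with the larger fall in soleus, against 4.9% of all peaks tested. The difference was positive in 6 of the 33 (median −1.30) and in 18 of the 35 (median 0.25), so the Myh4 calls do not describe that window's peaks as a set. With the animal as a block, since both muscles come from the same rats, 7 and 1 were called. The 4.9% belongs to the fit without that block, and the share of all peaks under it is not given here. Leaving out R1 U18 or R1 U20 of soleus left 5 Myh1 calls. The Myh4 calls fell to 1 without any one of the EDL controls, control U6 or U7 of soleus, D3 U9 or R1 U20 of EDL, or R1 U18 or U20 of soleus, and rose to 5 without D1 U26 of soleus.

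The windows rose and fell together across soleus libraries and against each other across EDL libraries. In soleus the log2 levels of Myh1 and Myh4 had Pearson's r = 0.859 and Spearman's rho = 0.814 (n = 21, permutation test, adjusted p = 4.0e-05 and 6.0e-05 over a family of 6), and r was 0.757 without the 2 libraries farthest from the median. In EDL they had r = −0.572 (adjusted p = 0.0087) and rho = −0.675 (adjusted p = 0.00162; permutation test), and r was −0.554 without the 2 farthest libraries. Plus and minus strand went together for Myh1 in soleus (r = 0.871), for Myh4 in soleus (0.847) and for Myh4 in EDL (0.704), but not for Myh1 in EDL (r = −0.027, permutation test, adjusted p = 0.908). The libraries mix 7 phases, and values of 1 animal and lane stand together in them. The levels are scaled by total tags, and whether Myh1 lay above control in EDL depended on the scale. The EDL relation is thus given for this scale only and was not tested with TMM factors. As a description, the upstream window followed both windows in soleus (rho 0.838 and 0.753) and neither in EDL (0.223 and −0.252).

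Outside this part of chromosome 10, the peaks whose levels over all 42 libraries were most like the Myh1 window lay at chr8:72828293-72828405, chr3:161244552-161244725 and chr3:161246218-161246427, all on the minus strand, with Spearman's rho of 0.936, 0.928 and 0.926. Those most like the Myh4 window lay at chr7:119443532-119443719 (rho 0.937), chr1:197870418-197870746 (0.930) and chr7:119428695-119429248 (0.926), also on the minus strand. Part of this likeness is the difference between the muscles: within EDL the rho of the Myh1 peaks was 0.440 to 0.481, and within soleus 0.864 to 0.916. The rho of the Myh4 peaks was 0.686 to 0.769 within EDL and 0.579 to 0.647 within soleus. The largest of them, at chr3:161246218-161246427, averaged 773 TPM in soleus and 8119 TPM in EDL. The genes at these positions were not named, because no annotation of the build was used here.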

How the data were processed

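CAGE tags of 42 libraries were analysed, which came from soleus and EDL of 21 rats. According to the study's methods, reads were trimmed with Trimmomatic, aligned to Rnor_6.0 with STAR allowing up to 20 loci, tag starts were aggregated with a PromoterPipeline script and peaks were clustered with the DPI1 tool; the submitters' processing notes list Trimmomatic 0.38, BWA and HISAT2 instead. The authors deposited raw tag counts per position for each library and per peak for the series, per the file headers as rescued tags. The authors' normalized columns of the peak table were not used.

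Start coordinates were read as 1-based. Window tags were summed from the position files, appended to the peak counts and fitted with edgeR 4.0.16 in R 4.3.3 (TMM factors, filterByExpr, quasi-likelihood test, Benjamini-Hochberg over all rows). The 7 groups of a muscle shared a fit, and both muscles were fitted together for comparisons between them. SE is the log2 change divided by the root of F. The members and lists were chosen with earlier results of these data known. Named were the window totals, the 5 highest peaks of each window, up to 5 called peaks per window and comparison against control, the neighbouring windows and the 3 most alike peaks per window. Other peaks called in EDL, the minus-strand peak before Myh4, the first peaks and the leading positions were singled out after their values were seen. Lists of fast and slow genes could not be placed on this build and were not tested. No library pair held identical counts.

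Soleus and EDL of an animal carry the same animal number, which pairs them. Over 9238 peaks, their deviations from the group means had correlations of −0.345 to 0.622 (median 0.274), over 0.1 in 15 of 21 animals. Alternatives were DESeq2 1.42.0, tag totals as library size, no filter, other regions of a window, lane or animal as a block, and each library left out. Scripts were tested on simulated data. Tests of a phase and fits between muscles rest on 3 animals per group, and each fit shares an estimate of the spread over its libraries. The within-animal share test used 21 animals. The correlation tests permuted 21 libraries of mixed phases as if they were exchangeable. Intervals cover the spread between these libraries and counting error.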

Additional observations from a re-analysis of the deposited data

Results flagged for a closer look

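For 12 member peaks the change from control to R1 differed between the muscles by the interaction test (edgeR, adjusted p under 0.05), each with the larger fall in soleus. Of all 9947 peaks tested, 1011 were called, 487 of them in this direction (4.9%). The 8 described here are named ones, 7 of which were named for their call in soleus R1 against control. Naming by a low soleus R1 level makes a negative difference likely for those 7. The other 4 started at 53751719, 53753913, 53761494 and 53782832. In the Myh1 window the differences in log2 change (soleus minus EDL) were −4.46 for the peak starting at 53751947, −5.22 at 53754263, −4.51 at 53755606, −4.32 at 53760412, −5.0004 at 53760809 and −4.26 at 53761328. In the Myh4 window they were −3.34 for the peak starting at 53794198 and −4.27 at 53799803. With the animal as a block 7 Myh1 peaks and 1 Myh4 peak were called, so at least 1 of these 2 Myh4 peaks lost its call; with tag totals as library size 1 Myh4 peak was called. All 8 lie outside the first peak of the Myh1 window, for which the same difference was −0.28 (adjusted p = 0.918).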

How the results depend on the processing

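Of 165 values per setting, 150 kept their direction and side of the threshold with DESeq2, 158 with tag totals, 164 without the filter and 130 with lane as a block. Where a window total was called neither in the report nor in the alternative, its sign changed in 100 of 1566 comparisons (6.39%), and a share's did in 17 of 276 (6.16%). With lane as a block in the fit of 42 libraries no member peak count stayed above 0 in soleus R1 (against control or D7) or EDL D3 and D7; plus-strand changes were −6.25 (Myh1) and −5.03 (Myh4) for soleus R1 against control and −2.86 for Myh1 against D7, and minus-strand changes were −3.88 and −3.77 against control, −1.67 and −1.01 against D7, and −4.03 for Myh4 in EDL D3, with adjusted p from 0.427 to 0.916. Lane and R1 share nearly all their libraries, and the cause was not tested. Counting only the first peaks gave Myh1 changes of 0.088 (R1 against control) and −2.66 (against D7), and only the 101-nt start region −0.74 (Myh1) and 0.24 (Myh4) for soleus R1 against control; fewer tags enter there. DESeq2 called more peaks: Myh1 plus strand 1 in soleus D1, 2 in D7, 1 in R7 and 24 in R1 against D7; Myh4 plus strand 2 in soleus D1, 2 in R1 against D7, and 11, 13, 8 and 2 in EDL D3, D7, R1 and R3; Myh4 minus strand 7, 2 and 1 in EDL D3, D7 and R3. It also called the difference between muscles for Myh1 on the plus (−3.63) and minus strand (−3.61), as tag totals did on the minus strand (−3.44). DESeq2 called more of all peaks too. In soleus it called 319 (D1), 138 (D7), 714 (R7) and 2470 (R1 against D7, 943 of them lower), where edgeR called 194, 12, 410 and 2286. In EDL it called 291, 221, 29 and 90 of all peaks in D3, D7, R1 and R3, against 124, 102, 0 and 0 by edgeR. With both muscles in 1 fit, Myh1 had 25 called peaks in R1 against D7 and 1 in R7, Myh4 had 9 in soleus D1, 9 in R1 against control, 4 in R1 against D7 and 0 in EDL D3 and D7, and the Myh4 minus strand in EDL D3 was −2.34 (adjusted p = 0.0568). That fit tested 33 Myh1 and 35 Myh4 plus-strand peaks, not the 25 and 14 of the soleus fit. The share of all peaks called in it is not given here, so its member counts have no background beside them. With tag totals as library size, 0 Myh4 peaks were called in EDL D3 and D7, 0 Myh1 minus-strand peaks in D7 and 1 Myh4 peak for the difference between muscles. Without the filter 1 Myh4 peak was called in R1 against D7. With the animal as replicate block, which uses the pairing of muscles, 1 Myh4 peak in place of 3 and 7 Myh1 peaks in place of 9 were called for the difference between muscles, and no window total changed its side of the threshold. Leaving out each library in turn, soleus R1 against control ranged from −4.22 to −3.11 (Myh1), −3.70 to −2.55 (Myh4) and −4.68 to −3.31 (Myh1 minus strand). R1 against D7 ranged from −4.32 to −1.996 (Myh1), −5.18 to −3.13 (Myh1 minus) and −4.99 to −3.65 (Myh4 minus). The Myh4 minus strand in EDL D3 ranged from −3.13 to −2.03, and the difference between muscles for Myh1 from −4.28 to −3.11 (plus) and −4.40 to −3.14 (minus). Called peaks ranged from 0 to 19 (Myh1) and 0 to 3 (Myh4) in R1 against D7, from 5 to 10 and 1 to 5 for the difference between muscles, from 0 to 9 for Myh4 in EDL D3 and D7 each and 0 to 1 in R3, from 0 to 2 and 0 to 1 for the Myh1 minus strand in D3 and D7, and from 0 to 7 and 0 to 2 for the Myh4 minus strand. Soleus R1 holds 8 to 190 plus-strand tags per window, which limits any statement on single starts there.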
